A study of Danio rerio with 4 samples.

Results

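The forkhead genes foxc1a, foxc1b, foxd1, foxd2, foxf1 and foxf2a were followed in neural crest cells of wild-type zebrafish (Danio rerio) embryos and of embryos mutant for the nuclear receptor gene nr2f5. They were chosen by name as forkhead genes of the pharyngeal arches, the embryonic bars from which jaw and gill skeleton form. All 6 were present among the 26267 genes of the deposited table, each with 1 gene ID and 1 transcript. Cells carrying the sox10:DsRed reporter were sorted by fluorescence from embryos at 20 hours post fertilization (hpf) and measured by bulk RNA sequencing. The 2 nr2f mutant libraries come from nr2f5 mutant embryos in which, per the labels, the genotype at nr2f2 is unknown, although the titles name both genes. The 2 other libraries come from wild-type embryos, and the sort on the sox10:DsRed reporter is common to all 4. The submitters list pools of 88 and 35 mutant embryos and of 110 and 120 wild-type embryos, without tying the pool sizes to replicate numbers. The study's title asks how Nr2f nuclear receptors control the fate of cranial ectomesenchyme, the crest-derived mesenchyme of the face.

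Forkhead proteins are transcription factors that bind DNA through a winged-helix domain. Foxc1 proteins act in facial cartilage, in the tissue around the eye and in vessels, and zebrafish need them for the upper facial skeleton. In the mouse, Foxd1, Foxd2, Foxf1 and Foxf2 of the facial mesenchyme are switched on by Hedgehog signalling from the neighbouring epithelium. Zebrafish keep a pair of copies of several of these genes, so foxc1a and foxc1b, and foxf2a and foxf2b, are paralogs left by a genome duplication.

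Abundances are the deposited TPM, transcript abundances scaled to a fixed library total, which correct for transcript length, so levels of different genes can be compared within a library. TPM keeps no read depth, and the depth of these libraries is therefore unknown. Pairs of values are given with replicate 1 first and replicate 2 second. Genes at 1 TPM or more numbered 13186 to 13412 in the mutant and 14333 to 14519 in the wild-type libraries. The mutated gene nr2f5 had 46.5 and 47.1 TPM in the mutant libraries and 579 and 559 TPM in the wild-type libraries. The crest and arch markers sox10, crestin, twist1a and dlx2a were present in all 4 libraries, without overlap between the genotypes. Groups did not overlap for 53.2% of all tested genes either. Higher in both mutant libraries were sox10 (590 and 461 TPM, against 411 and 318 TPM in wild type) and crestin (305 and 314 against 187 and 145 TPM). Lower in both were twist1a (498 and 469 against 847 and 1005 TPM) and dlx2a (355 and 464 against 598 and 662 TPM). These 4 stand for neither direction of crest or arch markers as a whole. Of the 19 tested markers of that list, 6 were higher and 9 lower in both mutant libraries. The crest marker snai2 was lower (90.5 and 96.8 against 188 and 178 TPM), and twist1b was higher (25.9 and 27.0 against 17.0 and 19.7 TPM). In the test described below, crestin, twist1a and dlx2a passed (limma, adjusted p = 0.00878, 0.00278 and 0.0329) and sox10 did not (0.103). Leaving out either mutant library ended the calls of crestin (log2 fold changes 0.93 and 0.89) and dlx2a (-0.44 and -0.82). That of dlx2a also ended without wild-type replicate 2 (-0.56), and that of twist1a ended without mutant replicate 2 (-0.89).

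In wild-type cells foxc1b was the most abundant of the 6 genes and foxf2a the least. The mean level was 105 TPM ± 0.754 (SD, n = 2) for foxc1b, 63.3 ± 6.71 for foxd1, 55.2 ± 0.0230 for foxd2, 44.9 ± 1.39 for foxc1a, 15.6 ± 3.15 for foxf1 and 4.34 ± 2.53 for foxf2a. No neighbours in this order overlapped between the 2 wild-type libraries. In mutant cells the order was led by foxd1, at 79.4 TPM ± 5.61, followed by foxc1b at 61.3 ± 4.48, foxd2 at 53.6 ± 9.52, foxc1a at 47.9 ± 8.61, foxf1 at 18.3 ± 3.22 and foxf2a at 14.4 ± 0.695. There the ranges of foxc1b and foxd2 overlapped, as did those of foxd2 and foxc1a, so their order was not separated by the spread.

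**Figure D1:**
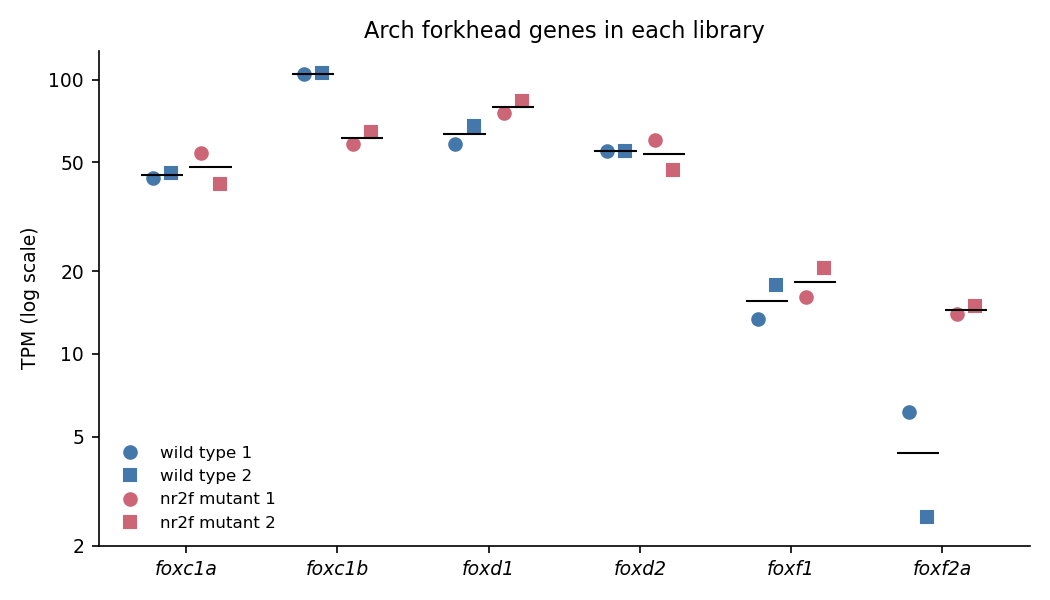
TPM (log scale) of each arch forkhead gene in the 4 libraries, with blue points for wild type, red points for nr2f mutant, circles for replicate 1, squares for replicate 2 and black lines for group means. The mutant points of foxc1b (58.2 and 64.5 TPM) lie below and those of foxf2a (13.9 and 14.9 TPM) above both wild-type points of the gene.

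Between the genotypes, foxc1b fell and foxf2a rose in the mutant cells, and foxc1a, foxd1, foxd2 and foxf1 did not pass the test. Each gene was tested with limma on log2(TPM + 1) in a fit over the 14217 genes whose mean reached 1 TPM, and called at a Benjamini-Hochberg adjusted p under 0.05. Of the 6 genes 1 rose and 1 fell, while 4.08% of all tested genes were called, 1.13% upward and 2.95% downward. The upward and downward shares were 2.27% and 2.95% under median-ratio scaling and 1.65% and 1.79% with quantile normalization. Both mutant libraries lay above both wild-type libraries for foxd1 and foxf2a and below them for foxc1b, 3 of 6 genes, against 53.2% of all tested genes. The median log2 fold change of the 6 genes was 0.15, and that of all tested genes was -0.16. In bulk RNA, fewer cells of a type and less RNA per cell cannot be told apart, and this holds for every difference given here. The labels call the 2 samples of a group biological replicates.

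Of the Foxc1 paralogs, foxc1b fell and foxc1a did not pass. The gene foxc1b (ENSDARG00000055398) had 58.2 and 64.5 TPM in the mutant libraries and 105 and 106 TPM in the wild-type libraries. Its groups did not overlap, the lowest wild-type value being 1.63 times the highest mutant value. The log2 fold change was -0.77 ± 0.15 (limma, SE, n = 2 per group, 95% interval -1.12 to -0.43, adjusted p = 0.0247). This was the gene of rank 310 by p among all those tested. The call ended when mutant replicate 1 was left out (adjusted p = 0.131), and likewise for mutant replicate 2 (0.118) and wild-type replicate 2 (0.0541) and under median-ratio scaling (0.0613), no filter on low values (0.132) and limma without trend and robust (0.167), while the log2 fold change stayed between -0.85 and -0.62 in all 14 alternatives.

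The copy foxc1a (ENSDARG00000091481) had 54.0 and 41.8 TPM in the mutant libraries and 43.9 and 45.8 TPM in the wild-type libraries. One mutant library lay above and the other below both wild-type libraries. Its log2 fold change was 0.08 ± 0.20 (limma, 95% interval -0.36 to 0.52, adjusted p = 0.847), and without mutant replicate 1 its sign was negative. The 2 copies together summed to 112 and 106 TPM in the mutant and 149 and 152 TPM in the wild-type libraries. Within a library, the TPM of foxc1a was 0.928 and 0.648 times that of foxc1b in the mutant libraries and 0.419 and 0.433 times in the wild-type libraries. This ratio does not depend on how libraries are scaled to each other, and its groups did not overlap. On the log2(TPM + 1) scale it was higher in mutant cells by 0.85 (exact permutation test over the samples, two-sided, p = 0.333, the smallest p that 2 samples against 2 allow).

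Neither Foxd gene passed the test. The gene foxd1 (ENSDARG00000029179), known in the mouse from kidney stroma and temporal retina, had 75.4 and 83.3 TPM in the mutant libraries and 58.5 and 68.0 TPM in the wild-type libraries. Both mutant values lay above both wild-type values, with the lowest mutant value 1.11 times the highest wild-type value. The log2 fold change of 0.32 ± 0.17 did not pass (limma, 95% interval -0.05 to 0.70, adjusted p = 0.305), and it stayed positive in all 14 alternatives.

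The related gene foxd2 (ENSDARG00000058133) had 60.3 and 46.9 TPM in the mutant libraries and 55.2 and 55.2 TPM in the wild-type libraries. The mutant libraries fell on either side of the wild-type libraries, which were nearly equal. The log2 fold change was -0.05 ± 0.19 (limma, 95% interval -0.47 to 0.37, adjusted p = 0.897), with a positive sign under median-ratio scaling, quantile normalization and without mutant replicate 2. The ratio of foxd1 to foxd2 in TPM was 1.25 and 1.78 in the mutant libraries and 1.06 and 1.23 in the wild-type libraries. On the log2(TPM + 1) scale the ratio was higher by 0.38 in mutant cells (exact permutation test, two-sided, p = 0.333, again the smallest p this design allows).

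Of the Foxf genes, which act in arch mesenchyme and in the mesoderm of the gut, only foxf2a passed the test. The gene foxf2a (ENSDARG00000017195) had 13.9 and 14.9 TPM in the mutant libraries and 6.13 and 2.55 TPM in the wild-type libraries. The groups did not overlap, the lowest mutant value being 2.28 times the highest wild-type value, but the wild-type replicates themselves differed 2.40-fold. The mean TPM was 3.33 times as high in mutant as in wild-type cells. The log2 fold change was 1.62 ± 0.38 (limma, 95% interval 0.78 to 2.46, adjusted p = 0.0448), rank 519 by p among the tested genes. The call ended when mutant replicate 1 was left out (adjusted p = 0.166), and likewise for mutant replicate 2 (0.276) and wild-type replicate 2 (0.103), and in the last case the log2 fold change was 1.11. Without wild-type replicate 1 it was 2.12 (adjusted p = 0.00571). The call also ended under other settings, among them a pseudocount of 0.1 TPM (0.0544), no filter (0.207), a fit per transcript (0.0925) and limma without trend and robust (0.151).

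The gene foxf1 (ENSDARG00000015399) had 16.1 and 20.6 TPM in the mutant libraries and 13.4 and 17.8 TPM in the wild-type libraries. These groups overlapped, and replicate 2 was the higher library in both. Its log2 fold change of 0.22 ± 0.28 did not pass (limma, 95% interval -0.39 to 0.84, adjusted p = 0.674). The TPM of foxf1 was 1.15 and 1.38 times that of foxf2a in mutant cells and 2.18 and 6.99 times in wild-type cells. The log2(TPM + 1) ratio was lower by 1.39 in mutant cells (mutant minus wild type -1.39, exact permutation test, two-sided, p = 0.333, the smallest p available). This difference was -0.90 with a pseudocount of 5 TPM and -1.60 with 0.1 TPM. The second Foxf2 copy, foxf2b, was low in all libraries, at 2.58 and 3.24 TPM in the mutant and 1.94 and 1.95 TPM in the wild-type libraries, with no overlap between the groups, and did not pass (log2 fold change 0.40 ± 0.38, limma, adjusted p = 0.576). Summed over foxf1, foxf2a and foxf2b, the level was 32.6 and 38.8 TPM in the mutant and 21.4 and 22.3 TPM in the wild-type libraries.

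**Figure D2:**
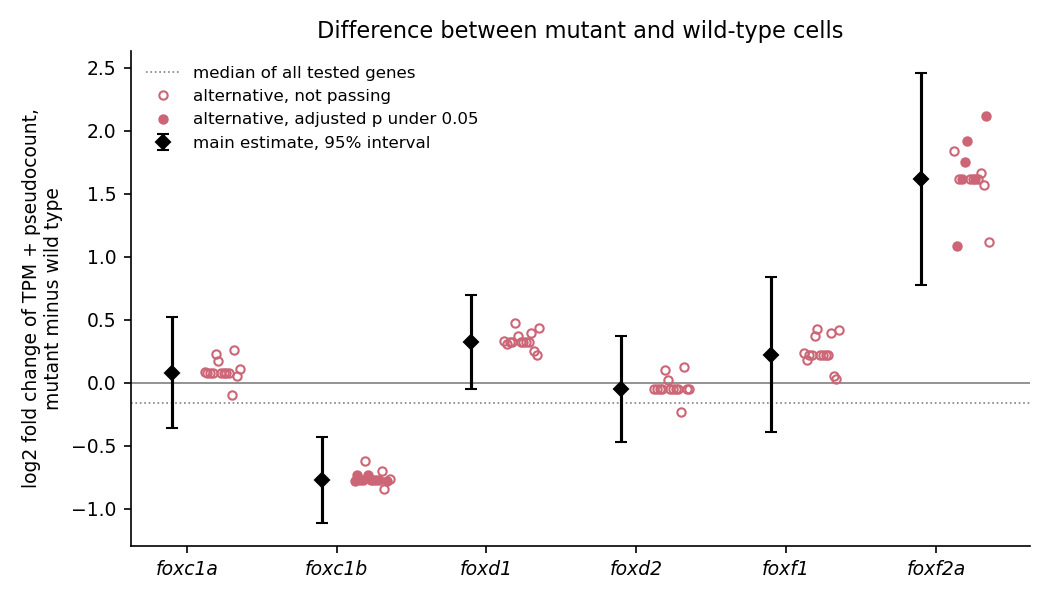
Log2 fold change of TPM plus a pseudocount, mutant minus wild type, for each gene (diamonds, main estimate with its 95% interval), with the 14 alternative settings to the right of each as red circles, filled where the adjusted p was under 0.05. The dotted line is the median of all tested genes (-0.16), and the alternatives of foxc1b all lie below 0 and those of foxf2a all above.

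The summed level of the 6 genes lay close together in the 4 libraries, and its make-up differed more. The sum was 278 and 272 TPM in the mutant and 282 and 295 TPM in the wild-type libraries, without overlap between the groups. The share of foxc1b in that sum was 20.9% and 23.7% in mutant and 37.2% and 35.9% in wild-type cells. The share of foxf2a was 5.02% and 5.49% in mutant and 2.17% and 0.864% in wild-type cells, and that of foxd1 was 27.1% and 30.6% against 20.8% and 23.0%. The groups did not overlap for these 3 shares and overlapped for those of foxc1a, foxd2 and foxf1. In TPM, groups did not overlap for 53.2% of all tested genes. Shares of the same sum depend on each other, so a lower share of foxc1b raises the others. The share of foxc1a ran from 15.4% to 19.4% over the 4 libraries.

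**Figure D3:**
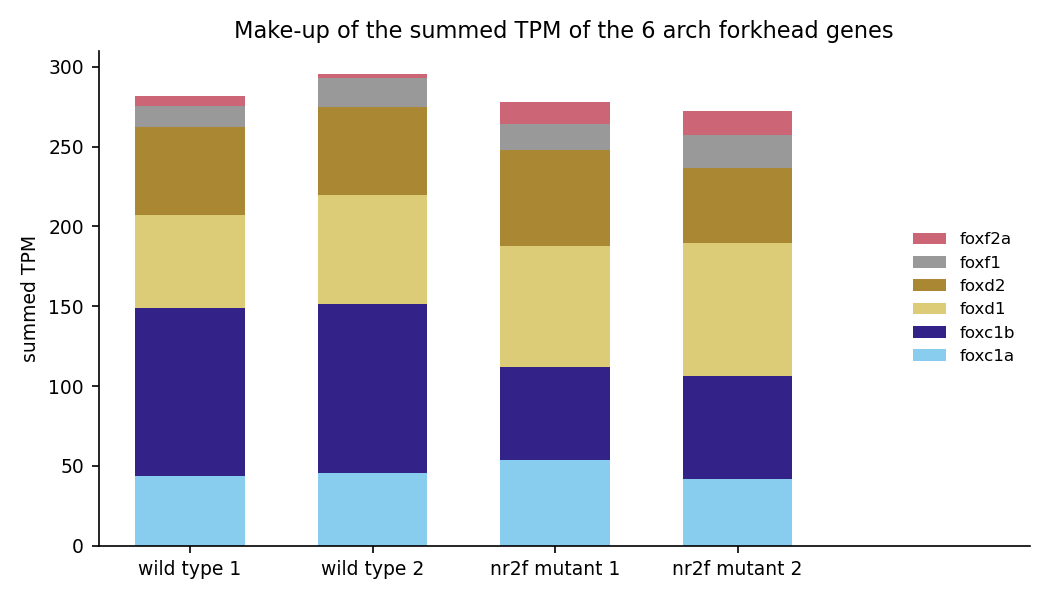
Stacked bars of the TPM of the 6 arch forkhead genes in each library. The bars reach 272 to 295 TPM, and the foxc1b layer is thinner and the foxf2a layer thicker in both mutant libraries.

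The other 51 forkhead genes of the table were looked at for comparison, of which 34 were tested and 5 were listed at 0 in every library. Among them foxd3 rose, foxp1a and foxp1b fell, and 31 did not pass. Fewer passed when mutant replicate 2 or wild-type replicate 2 was omitted. Of all tested genes fewer passed without mutant replicate 2 and more without wild-type replicate 2. The median log2 fold change of the 34 was -0.27. That median was -0.11 relative to all tested genes, of which 4.08% were called. The 6 arch genes made up 34.6% to 41.3% of the summed forkhead TPM. By level among all forkhead genes foxc1b ranked 3 and 2 in wild-type and 5 and 3 in mutant replicates 1 and 2, and foxf2a ranked 19 and 26 in wild-type and 13 and 11 in mutant replicates.

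The crest specifier foxd3 was the most abundant forkhead gene in these cells, at 191 and 173 TPM in the mutant and 121 and 111 TPM in the wild-type libraries. Its groups did not overlap. The log2 fold change was 0.65 ± 0.13 (limma, adjusted p = 0.0285). Leaving out mutant replicate 1 (0.166), mutant replicate 2 (0.142) or wild-type replicate 2 (0.0585) ended the call, as did 3 further alternatives of 14, among them the fit per transcript (0.0544).

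The Foxp1 genes encode repressors of the forkhead family, and both copies passed the test as lower, foxp1b narrowly. The gene foxp1a had 58.3 and 40.9 TPM in the mutant libraries and 111 and 89.7 TPM in the wild-type libraries (log2 fold change -1.02 ± 0.20, limma, adjusted p = 0.0260). The gene foxp1b had 7.03 and 2.09 TPM in the mutant libraries and 21.6 and 14.7 TPM in the wild-type libraries (log2 fold change -1.92 ± 0.45, limma, adjusted p = 0.0487). Neither gene overlapped between groups, and together they summed to 65.3 and 43.0 TPM in the mutant against 133 and 104 TPM in the wild-type libraries. The call of foxp1a depended on mutant replicate 2 (adjusted p = 0.209 when left out) and wild-type replicate 1 (0.0724). That of foxp1b depended on mutant replicate 2 (0.245), wild-type replicate 1 (0.166) and wild-type replicate 2 (0.0536), and with mutant replicate 2 left out its log2 fold change was -1.23. The call of foxp1b ended in 9 of 14 alternatives, among them quantile normalization (0.0636), a pseudocount of 0.1 TPM (0.0694) and fits per gene ID (0.0532) and per transcript (0.126), and that of foxp1a ended in 5, among them the fit per transcript (0.068). The other abundant forkhead genes did not pass: foxp4 had a log2 fold change of -0.51, foxk2 of -0.20 and foxo3a of -0.38.

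**Figure D4:**
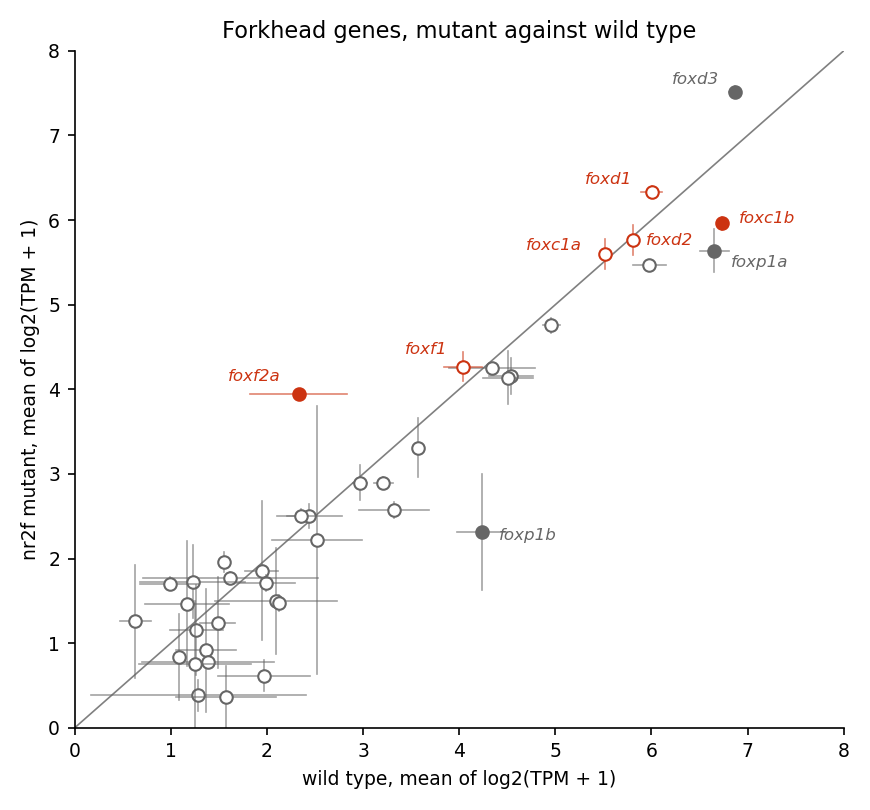
Mean log2(TPM + 1) of each tested forkhead gene in mutant against wild-type cells, with lines from the lower to the higher replicate, red for the 6 arch genes, grey for the others, and filled points for genes with an adjusted p under 0.05. The points of foxf2a and foxd3 lie above the line of equality and those of foxc1b, foxp1a and foxp1b below it.

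The Hedgehog pathway switches on Foxd and Foxf genes in the mouse face. Of 24 of its genes 18 were tested, and 0 rose and 0 fell (limma), near the 4.08% called among all tested genes. An unadjusted p under 0.05 was found for 4 of the 18 and for 20.4% of all tested genes, so this share too was near the background. The 4 were gas1a (0.0241), gli2b (0.0330), boc (0.0160) and hhatla (0.00514), of which all but gas1a were picked out after their values were seen. The median log2 fold change of the list was -0.36, or -0.20 relative to all tested genes. The most abundant were sufu, an intracellular inhibitor of the pathway, at 64.5 and 49.6 TPM in the mutant and 56.2 and 58.5 TPM in the wild-type libraries, and gas1a, a co-receptor, at 25.6 and 24.5 TPM against 33.5 and 43.6 TPM. The direct targets ptch1 and gli1, added after their values were seen, had log2 fold changes of -0.63 and -0.33 and did not pass (adjusted p = 0.461 and 0.676). Without wild-type replicate 1, hhatla was called (log2 fold change -2.95, against -2.07 over all 4 libraries). In that setting more of all tested genes were called too.

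Cartilage is a tissue in which zebrafish Foxc1 acts. Of 28 cartilage genes 19 were tested, 0 rose and 2 fell, against 1.13% rising and 2.95% falling among all tested genes, with a median log2 fold change of -0.33 (-0.17 relative to all tested genes). The link protein gene hapln1b fell, with 1.55 and 1.54 TPM in the mutant and 10.7 and 6.91 TPM in the wild-type libraries (log2 fold change -1.92 ± 0.37, limma, adjusted p = 0.0214). The cartilage regulator sox9a fell too, with 11.0 and 8.58 TPM in the mutant and 25.0 and 22.9 TPM in the wild-type libraries (log2 fold change -1.21 ± 0.27, limma, adjusted p = 0.0357). Without mutant replicate 1, mutant replicate 2 or wild-type replicate 1 both calls were lost (adjusted p = 0.0798 to 0.232), and that of sox9a also without wild-type replicate 2 (0.0566). Mutant replicate 2 stood apart for some matrix genes: col2a1a was at 6.15 and 41.96 TPM in the mutant and 8.46 and 3.08 TPM in the wild-type libraries, and col9a1b at 1.07 and 25.6 TPM against 1.53 and 0.324 TPM, neither passing (limma, adjusted p = 0.519 and 0.522); with mutant replicate 1 left out both were called higher (0.0480 and 0.0228). The matrix genes acana and matn1, and col2a1a and col9a1b before them, were added after their values were seen, and acana and matn1 were at or under 0.158 TPM in every library.

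Genes of the mesenchyme around the eye, another site of Foxc1, were tested in 8 of 12 cases, with 0 rising and 1 falling. Over the whole tested set, 1.13% were called upward and 2.95% downward. The 8 eye genes had a median log2 fold change of -0.81 (-0.65 relative to all tested genes). Both mutant libraries lay below both wild-type libraries for 6 of these 8, and for 34.9% of all tested genes. The falling gene was eya2, a transcriptional coactivator, at 2.28 and 2.33 TPM in the mutant and 7.41 and 12.04 TPM in the wild-type libraries (log2 fold change -1.66 ± 0.36, limma, adjusted p = 0.0340). Leaving out mutant replicate 1 (0.134), mutant replicate 2 (0.193) or wild-type replicate 2 (0.116) ended its call.

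Markers of other cells, several of them sites where these forkhead genes are known to act, were summed per library. For the counts of called genes, the shares over all tested genes were 1.13% rising and 2.95% falling. Endothelial markers, for cells in which Foxc1 acts, summed to 41.4 and 31.8 TPM in the mutant and 110 and 62.1 TPM in the wild-type libraries, with stab2 and fli1b the 2 of 14 tested genes that fell and 0 rising. The defining genes kdrl and cdh5, added after their values were seen, were at 0.173 to 0.956 TPM in mutant and 1.25 to 3.94 TPM in wild-type cells. Neither passed (limma, adjusted p = 0.137 and 0.356). The gene fli1a, which rose, is counted with the crest and arch ectomesenchyme markers and not in the endothelial list. Mural and smooth muscle markers summed to 6.90 and 4.64 TPM against 14.4 and 11.2 TPM, with notch3 and myh11a the most abundant, 0 of 3 tested genes called, and kcnj8 and cnn1b listed at 0 in every library. Lateral plate and visceral mesoderm markers, led by prdm1a and lmo2, summed to 88.5 and 84.1 TPM against 155 and 110 TPM, with 0 of 11 called. In that sum prdm1a alone gave 26.4 and 36.0 TPM in the mutant and 54.5 and 44.9 TPM in the wild-type libraries. The gene hand2 is counted both in it and with the crest and arch ectomesenchyme markers. The lateral plate sum thus does not measure lateral plate cells alone. Paraxial mesoderm and somite markers summed to 107 and 57.6 TPM against 114 and 78.1 TPM, with cdx4 rising, 0 falling, 11 tested, and mespba and mespbb listed at 0. Of these sums cdx4 alone gave 57.4 and 28.0 TPM in the mutant and 11.6 and 7.92 TPM in the wild-type libraries. The median log2 fold change of the paraxial list was -0.68, or -0.51 relative to all tested genes. Retina and forebrain markers, led by hesx1 and six3b, summed to 63.0 and 48.5 TPM against 86.2 and 76.5 TPM, with 0 of 16 called. The fall of foxc1b ran in the same direction as these sums and the rise of foxf2a against them, apart from the paraxial sums, whose groups overlapped, and their part in either was not tested. Fewer genes of the endothelial list were called when either mutant replicate or wild-type replicate 1 was omitted. Of all tested genes fewer were called without either mutant replicate and more without wild-type replicate 1. With wild-type replicate 2 left out, cdx4 and meox1 of the paraxial list had log2 fold changes of 1.71 and -1.62, against 1.96 and -1.11 over all 4 libraries. For tal1 of the lateral plate list they were -2.01 and -1.46.

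Markers of further cell types that the sort could hold were summed in the same way, and again 1.13% of all tested genes rose and 2.95% fell. Skeletal muscle markers summed to 496 and 197 TPM in the mutant and 1275 and 3696 TPM in the wild-type libraries, with 6 of 24 falling, led by smyhc1, unc45b, desma and srl. Myeloid markers summed to 70.7 and 81.0 TPM against 315 and 483 TPM, with 10 of 15 falling, led by cebpb, ncf1, spi1b and cebpa, and 1 rising. Epidermis and periderm markers summed to 797 and 533 TPM against 607 and 4993 TPM, with krt97 and cdh1 the 2 of 19 that fell. Of the crest and arch ectomesenchyme markers 2 of 19 rose and 6 fell, the falls led by nr2f5, prrx1b, twist1a and snai2. The 2 that rose were crestin and fli1a, the latter at 229 and 337 TPM in the mutant and 155 and 145 TPM in the wild-type libraries. Both mutant libraries lay above both wild-type libraries for 6 of the 19 and below them for 9. The shares over all tested genes were 18.2% and 34.9%. Since nr2f5 is the mutated gene, its fall is no separate result, though it is counted here. Without wild-type replicate 1 more genes of the muscle and epidermis lists were called, and more of all tested genes. Without mutant replicate 2 fewer were called in the muscle, myeloid, ectomesenchyme and epidermis lists, and fewer of all tested genes. Without mutant replicate 1 the same held for the myeloid, ectomesenchyme and epidermis lists and for all tested genes. The epidermis genes krt17, krt92 and anxa1c changed sign with the wild-type library left out. Without wild-type replicate 1 their log2 fold changes were -3.69, -3.71 and -3.61. Without wild-type replicate 2 they were 1.87, 1.82 and 1.965. The gene krt97 kept its sign, at -1.77 and -1.80. Among the marker genes named here, the calls lost without mutant replicate 1 were those of stab2, fli1b, cdx4, srl, krt97, cdh1 and crestin. Without mutant replicate 2 they were those of twist1a, snai2, stab2, fli1b, unc45b, desma, srl, cebpa, krt97, cdh1, crestin and fli1a. Without wild-type replicate 1 the calls of fli1b and fli1a were lost, and without wild-type replicate 2 those of fli1b, srl, cdh1 and fli1a. The part of these cells in the forkhead differences was not tested.

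Gene order in RefSeq's assembly GRCz12tu places foxc1a, foxf2a and foxq1a side by side with the single gene ftr93 between the first pair, and foxc1b, foxf2b and foxq1b side by side on another chromosome; the genes beside them were looked up after the values were seen. In the first cluster foxf2a rose while foxc1a did not pass, and foxq1a stood at 4.30 TPM in wild-type replicate 2 and at 0.126 to 0.483 TPM in the other libraries. The phosphatase gene dusp22b, 3 protein-coding genes from foxf2a, had 20.5 and 22.8 TPM in the mutant libraries and 10.5 and 10.5 TPM in the wild-type libraries and did not pass (log2 fold change 0.97 ± 0.26, limma, adjusted p = 0.0705). In the second cluster foxc1b fell while foxf2b did not pass. Its neighbours gmds and exoc2 had log2 fold changes of -0.32 and -0.16 and did not pass (limma, adjusted p = 0.508 and 0.675). The gene serpinb1, 3 protein-coding genes from foxc1b, had 0.641 and 0.704 TPM in the mutant libraries and 2.59 and 6.43 TPM in the wild-type libraries and did not pass (log2 fold change -1.63 ± 0.45, limma, adjusted p = 0.0837). Near foxf1, which did not pass, irf8 fell, 2 protein-coding genes away (log2 fold change -1.66 ± 0.36, limma, adjusted p = 0.0345). That call ended when any 1 library was left out (log2 fold change -1.74 to -1.58). The gene irf8 is also counted among the myeloid markers above, of which 10 of 15 tested genes fell. The part of myeloid cells in its fall was not tested. The other tested neighbours of foxf1 had log2 fold changes of -0.76 to 0.49 and those of foxd1 -1.01 to 0.30, and none passed.

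The genes whose values over the 4 libraries ran most like each forkhead gene were taken from the 8268 named genes whose mean reached 5 TPM, by the root mean square distance of log2(TPM + 1) centred on each gene's mean. For foxc1b they were gatm, cnn2 and tmem161a, at distances of 0.022, 0.031 and 0.032. For foxf2a they were crebl2, ctsc and SERF2, at 0.13, 0.20 and 0.23, the widest of the 6 sets. The gene crebl2 had 22.8 and 20.2 TPM in the mutant libraries and 10.4 and 5.07 TPM in the wild-type libraries, with wild-type replicate 2 the lowest library as for foxf2a. For foxd1 they were rbx1, ola1 and atg101, at 0.011 to 0.014. For foxc1a they were map2k1, znhit1 and hax1, and for foxd2 inavab, srp14 and elf2b, at distances from 0.0066 to 0.019. For foxf1 they were nudt3b, rgs3a and uqcc3, at 0.043 to 0.046. Among the 6 genes themselves, the nearest pair was foxc1a with foxd2, at 0.070, and the farthest was foxc1b with foxf2a, at 1.25. The likeness describes these 4 libraries and no others.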

How the data were processed

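The authors deposited TPM for 65905 Ensembl transcripts in 1 table, 57775 of them with values. Kallisto and genome build GRCz11 stand in the labels, per the submitters' processing notes; the kallisto version and annotation release are not given in the sources used here. Transcript values were summed per gene name. TPM + 1 was log2-transformed, and genes whose mean reached 1 TPM were fitted with limma 3.58.1 (trend and robust, statmod 1.5.0) in R 4.3.3, mutant against wild type, two-sided, n = 2 per group. P-values were adjusted over all 14217 genes tested. Fold changes are on the log2(TPM + 1) scale and understate those of low genes. Read depth is unknown, so no count model or counting interval was used.

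Named genes were the 6 forkhead genes, other forkhead genes that passed or were among the 5 most abundant, nr2f5 and nr2f2, up to 4 passing genes of each list or else its 2 most abundant, and the 3 genes most like each forkhead gene; any other gene named was added after its values were seen. The genes, lists and tests were chosen with earlier results of these data known. The gene nr2f2 stood at 51.7 to 73.5 TPM over the 4 libraries and did not pass. No sequence is shown. Alternatives were other pseudocounts, filters, scalings, features, moderation, the replicate block and leaving out each library.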

Additional observations from a re-analysis of the deposited data

How the results depend on the processing

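Over 14 alternatives foxd1 and foxf1 kept a positive sign and did not pass (log2 fold changes 0.22 to 0.48 and 0.03 to 0.43). The sign of foxc1a turned without mutant replicate 1 (-0.10; 0.26 at most without another sample). That of foxd2 turned with median-ratio scaling (0.10), quantile normalization (0.025) and without mutant replicate 2 (0.13; -0.23 at the lowest without another sample). The fall of foxc1b kept its sign in all 14 but did not pass in 6: median-ratio scaling (-0.62, adjusted p = 0.0613), no filter and limma without trend and robust (both -0.77, adjusted p = 0.132 and 0.167), and 3 of the 4 omissions of 1 sample (-0.85 to -0.70, adjusted p = 0.0492 to 0.131 over the 4). The rise of foxf2a kept its sign in all 14 but did not pass in 8: a pseudocount of 0.1 TPM (1.84, adjusted p = 0.0544), no filter (1.62, 0.207), limma without trend and robust (1.62, 0.151), per transcript (1.62, 0.0925), the replicate block (1.62, 0.0573), and 3 of the 4 omissions of 1 sample (1.11 to 2.12, adjusted p = 0.00571 to 0.276 over the 4). The cause was not tested. Genes called numbered 580, against 4 with no filter (genes listed at 0 throughout left out), 0 with limma without trend and robust (2531 at an unadjusted p under 0.05), and 110 to 720 with 1 sample left out. Median-ratio scaling moved the median of all genes from -0.16 to -0.03 and gave 323 rises and 420 falls, and quantile normalization gave 235 and 254, against 161 and 419. The replicate numbers did not pair the samples: across genes, the difference between replicates 1 and 2 had r = -0.012 between the genotypes. With the replicate block 565 genes were called, and of the 6 genes only foxf2a changed its call. With 2 samples a group, ratios within a library could not reach an exact p under 0.333.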
